A study of Mus musculus with 24 samples.

Results

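The collagen gene family was followed in the inner medulla of the mouse kidney, in males and females given saline or cisplatin. Its members were the genes whose symbol has the form of a collagen chain (Col, a type number, a, a chain number) and which had a count in at least 5 of the 24 libraries. This gave 44 of 55416 gene identifiers: 11 fibrillar collagens, 8 basement membrane collagens (types IV, XV and XVIII) and 25 other collagens. Enough counts for a test were present for 33 of the 44.

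Collagens are extracellular proteins whose chains wind around each other into a stiff helix. Fibrillar collagens (types I, III, V, XI and others) assemble into the fibrils of the interstitial matrix and are made mainly by fibroblasts. Type IV collagen forms the sheet under epithelia and endothelia, types XV and XVIII sit in and beside that sheet, and type VI collagen forms a network of beaded filaments around cells. The kidney inner medulla holds collecting ducts, thin limbs, small vessels and a matrix-rich interstitium with many fibroblasts.

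The mice were C57BL/6, an inbred laboratory strain, aged 9 to 10 weeks, and carried no labelled genetic change. They received 1 intraperitoneal injection of 100 µl, holding saline or cisplatin at 15 mg/kg, and the tissue was taken after 72 h. Cisplatin is a platinum drug that binds DNA and injures kidney tubules. Poly(A)-selected RNA gave 12 libraries from males (6 with saline, 6 with cisplatin) and 12 from females (7 with saline, 5 with cisplatin). Since the labels do not tie each library to 1 mouse, p-values here reflect only how libraries vary, which may be technical. Each library held between 18084242 and 27279102 counts. Levels are counts per 1000000 (CPM), with library sizes scaled by the trimmed mean of M values (TMM). In bulk tissue, fewer cells of a type and less RNA per cell cannot be told apart.

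The labelled tissue was checked against its markers. Aqp2, the water channel of collecting duct principal cells, was at 3564 to 8893 CPM, whereas the podocyte gene Nphs1 was at most 0.418 CPM in any library. Outer tubule segments were present as well. Thick ascending limb markers summed to means of 9329 CPM in male saline and 6544 CPM in female saline libraries. Principal cell markers summed to 7937 and 7654 CPM there. Proximal tubule markers summed to 145.7 to 899.8 CPM in male saline libraries.

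In saline libraries the basement membrane collagens were the most abundant members. Divided by exon length, Col18a1, the precursor of endostatin, had the highest level at 88.4 CPM per kb (mean of 13 libraries). Next came the type IV chains Col4a4 at 65.5, Col4a3 at 56.0, Col4a5 at 49.1, Col4a1 at 34.5, Col4a2 at 23.6 and Col4a6 at 14.6 CPM per kb. Col4a3, Col4a4 and Col4a5 together form a network found in the basement membranes of glomeruli and of some tubules, and Col4a1 with Col4a2 forms the network found in nearly all basement membranes. Outside this class, the highest levels per length were those of Col1a2, a chain of type I collagen, at 13.3 CPM per kb and of Col6a1 at 6.56 CPM per kb. The plot of levels per kb gives the order of all 44 genes.

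**Figure D1:**
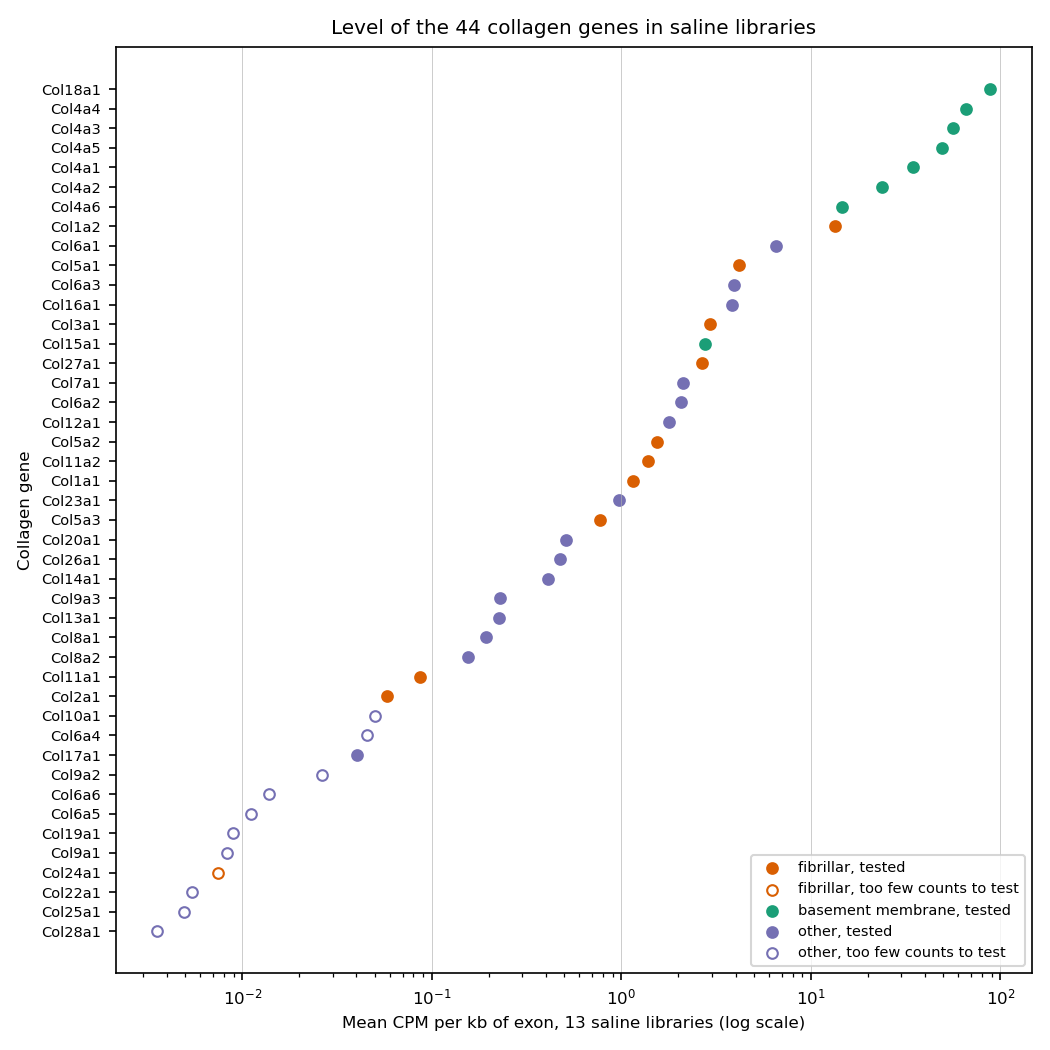
Mean level of each of the 44 collagen genes over the 13 saline libraries, as CPM per kb of exon on a log axis, coloured by class, with open points for the 11 genes with too few counts to test. The first 7 places belong to basement membrane collagens, from Col18a1 at 88.4 to Col4a6 at 14.6 CPM per kb.

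The partner chain of Col1a2, Col1a1, was at only 1.16 CPM per kb and held place 21 of 44. The ratio of Col1a2 to Col1a1 per kb had a mean of 12.9 over the 24 libraries. In CPM, the ratio lay between 12.6 and 69.3, so Col1a2 had the higher value in every library. Whether the way reads were aligned and assigned to genes enters this ratio could not be checked from the counts, so it is given for the counts and not for the RNA itself. Partner chains of type IV were closer to each other: Col4a1 over Col4a2 had a mean of 1.40 per kb, and Col4a4 over Col4a3 a mean of 1.27. These pairs lie head to head in the genome (GRCm38). Col4a2 (chr8:11312805-11449287, plus strand) and Col4a1 (chr8:11198423-11312826, minus strand) overlap by 22 bases at their starts, and the starts of Col4a4 and Col4a3 on chromosome 1 have 71 bases between them.

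Several collagen genes were lower after cisplatin in males, among them 5 of 10 tested fibrillar members and all 3 tested type VI members. Of the 33 tested members, 11 fell and 2 rose in male cisplatin against male saline (edgeR quasi-likelihood test, Benjamini-Hochberg adjusted p under 0.05 over 18005 genes). This is 39.4% of the tested members, while 20.7% of all tested genes were called. By direction, 33.3% of the members were called lower against 7.54% of all genes, and 6.06% higher against 13.2%. The log2 fold change was negative for 27 members and positive for 6, with a median of -0.51 over the members and 0.022 over all genes. Only 7 fell when male saline replicate 4, male saline replicate 6 or male cisplatin replicate 3 was left out, and 4 with tubule markers as a covariate. The share of all genes called in either direction was lower there too. It was 15%, 16.3% and 14.2% in these leave-outs, in that order, and 11.6% with the covariate. In females, none of the 33 members passed, where 0.272% of all genes did (0.2% higher and 0.0722% lower). The female values were negative for 27 members, with a median of -0.22 (0.0091 over all genes).

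**Figure D2:**
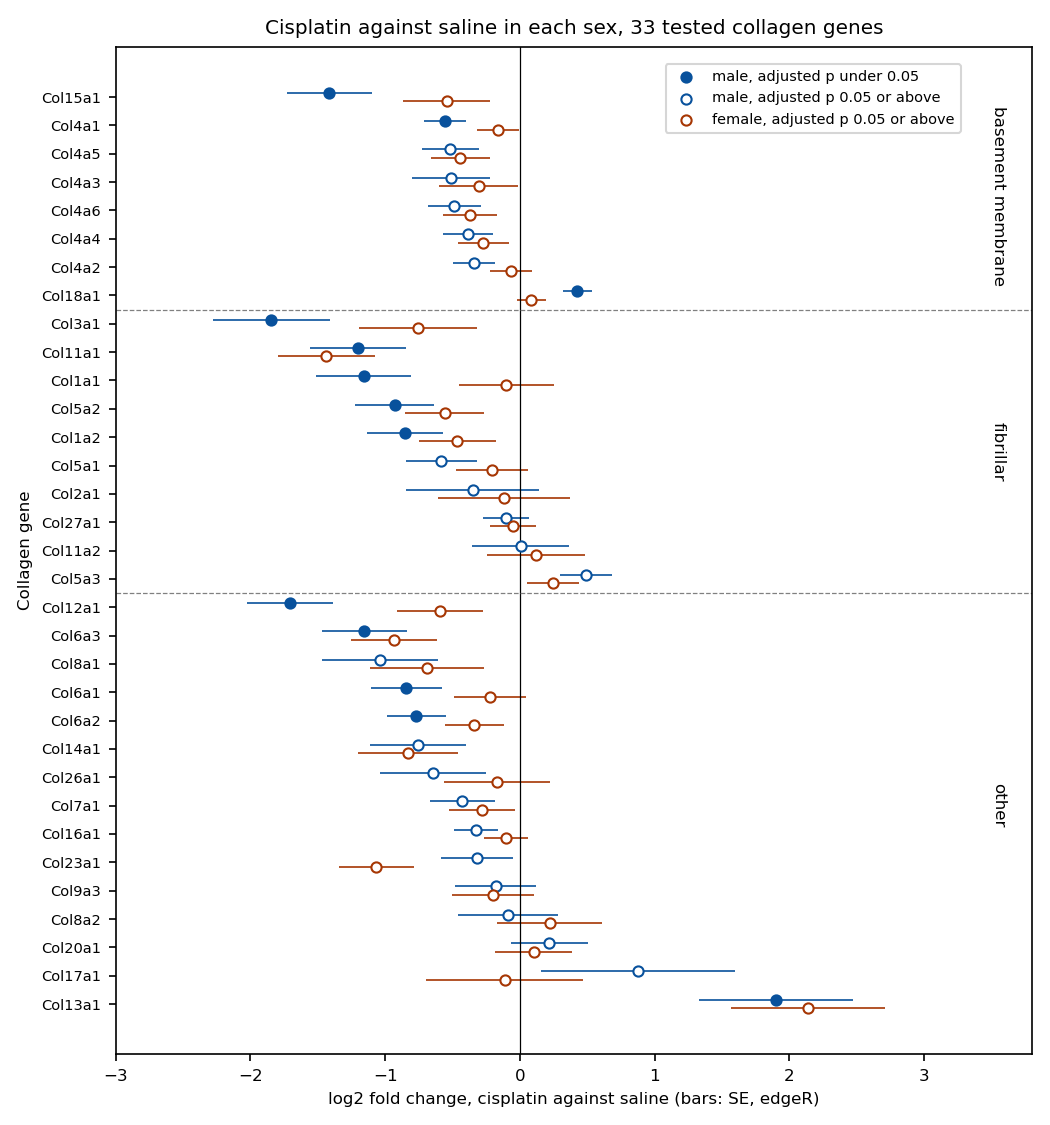
Log2 fold change of cisplatin against saline for the 33 tested collagen genes, in males (blue) and females (brown), with bars of 1 SE and filled points for an adjusted p under 0.05. Filled points are seen in males only: 11 lie to the left of 0, down to -1.84 for Col3a1, and Col18a1 and Col13a1 lie to the right.

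Fibrillar collagens are described first. In males 5 of the 10 tested members fell (Col1a1, Col1a2, Col3a1, Col5a2 and Col11a1), none rose, and the median log2 fold change was -0.72. Type III collagen, the product of Col3a1 (chr1:45311538-45349706), is a main fibril collagen of soft organs. Col3a1 was at 15.0 to 50.7 CPM (median 31.7) in the 6 male saline libraries. With cisplatin it was at 3.15 to 19.9 CPM (median 7.77), and 5 of 6 libraries lay below the saline range. The log2 fold change was -1.84 ± 0.44 (SE, adjusted p = 0.0066), a 3.59-fold lower level. In females the saline range was 12.3 to 37.4 CPM, and the cisplatin libraries were at 15.5, 14.01, 30.2, 7.82 and 3.68 CPM. Only 2 of the 5 lay below the saline range, and the log2 fold change of -0.76 ± 0.44 did not pass (adjusted p = 0.42).

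Both type I chains fell in males. Col1a2 (chr6:4504814-4541544) had a male saline range of 126.1 to 201.6 CPM (median 155.9) and a cisplatin range of 35.6 to 152.2 CPM (median 88.2). One cisplatin library, replicate 4, lay inside the saline range. Its log2 fold change was -0.85 ± 0.28 (adjusted p = 0.035). Col1a1 (chr11:94936224-94953042) went from a median of 8.12 CPM (4.74 to 14.04) to a median of 3.57 CPM (2.62 to 6.13), with a log2 fold change of -1.16 ± 0.35 (adjusted p = 0.024). The groups overlapped, since 2 of 6 cisplatin libraries lay inside the saline range. Col1a2 did not pass without male saline replicate 1, 4 or 6 or male cisplatin replicate 1, 2 or 3 (adjusted p up to 0.083), nor Col1a1 without male saline replicate 4 or 6 or male cisplatin replicate 3 (up to 0.065). In females the log2 fold change was -0.10 ± 0.35 for Col1a1 and -0.46 ± 0.29 for Col1a2, and neither passed (adjusted p = 0.91 and 0.45).

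Col5a2 and Col11a1 encode chains of the minor fibrillar collagens, which are built into type I and type II fibrils. Col5a2 (chr1:45374321-45503282), which lies 24.6 kb from the end of Col3a1, had a narrow male saline range of 12.8 to 15.3 CPM (median 13.5). All 6 male cisplatin libraries were below it, at 2.38 to 12.7 CPM (median 6.89), and the log2 fold change was -0.93 ± 0.29 (adjusted p = 0.028, and up to 0.062 without male saline replicate 6 or male cisplatin replicate 2, 3 or 5). Its partner Col5a1 did not pass (-0.58 ± 0.26, adjusted p = 0.12), and the third chain, Col5a3, had a positive value that did not pass either (0.49 ± 0.19, adjusted p = 0.069). Col5a1 was called lower without male cisplatin replicate 4. Col5a3 lay above the male saline range in 5 of 6 cisplatin libraries. It was called higher with DESeq2 in place of edgeR and without male cisplatin replicate 5 or 6. The same held with thick limb markers as a covariate and without 3 libraries of divergent markers. The ratio of Col5a1 to Col5a2 had a mean of 2.64 ± 0.39 (SD, n = 6) in male saline and 3.49 ± 0.56 (n = 6) in male cisplatin libraries. Col11a1 (chr3:114030540-114220718) was low, at 0.545 to 1.67 CPM in male saline and 0.219 to 0.640 CPM in male cisplatin libraries. It fell by 1.20 ± 0.36 on the log2 scale in males (adjusted p = 0.021, and 0.0705 without male saline replicate 4). In females all 5 cisplatin libraries (0.776, 0.532, 0.527, 0.0972 and 0.334 CPM) lay below the saline range of 0.810 to 1.58 CPM, and the log2 fold change was -1.44 ± 0.36 (adjusted p = 0.097, ranging from 0.044 without female cisplatin replicate 1 to 0.37 without replicate 4).

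Col27a1 (-0.10 ± 0.17), Col11a2 (0.0055 ± 0.36) and Col2a1 (-0.35 ± 0.49) complete the tested fibrillar collagens and did not pass in males. Col24a1 had too few counts to test.

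The stretch before the transcription start is shown for 5 members called in males, and only where it holds no annotated exon. Of these, 4 fell, and Col13a1 rose. Each stretch is the 120 bases before the RefSeq start on GRCm38.p6, read 5′ to 3′ on the strand of the gene. Capitals mark matches, searched on both strands, to 3 promoter motifs. They are CCAAT (the CCAAT box), the letters TATAAA of the TATA box, and GGGCGG, the core of the GC box. The stretch of Col6a2 also met the rule, held no match and is not printed.
Col3a1, chr1:45311418-45311537, plus strand: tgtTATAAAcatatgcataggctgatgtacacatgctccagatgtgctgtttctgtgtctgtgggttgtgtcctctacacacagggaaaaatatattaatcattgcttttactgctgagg
Col11a1, chr3:114030420-114030539, plus strand: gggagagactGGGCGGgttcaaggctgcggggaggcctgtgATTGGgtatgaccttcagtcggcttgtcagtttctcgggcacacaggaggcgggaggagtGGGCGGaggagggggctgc
Col15a1, chr4:47207892-47208011, plus strand: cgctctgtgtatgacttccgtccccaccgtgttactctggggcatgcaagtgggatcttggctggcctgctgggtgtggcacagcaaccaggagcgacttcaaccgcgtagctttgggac
Col6a3, chr1:90843972-90844091, minus strand: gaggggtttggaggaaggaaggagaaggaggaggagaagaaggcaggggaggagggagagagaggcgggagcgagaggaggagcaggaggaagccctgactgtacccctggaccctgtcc
Col13a1, chr10:61979109-61979228, minus strand: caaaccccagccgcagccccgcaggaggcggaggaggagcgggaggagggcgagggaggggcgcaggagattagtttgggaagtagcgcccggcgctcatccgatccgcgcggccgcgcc
Counting back from the start, TATAAA begins at -117 in Col3a1, and GGGCGG at -110 and -19 and CCAAT, on the opposite strand, at -79 in Col11a1, so no match overlaps another. The windows of the 4 genes that fell and of Col13a1, which rose, differ in base composition, from 40.0% G and C in Col3a1 to 73.3% in Col13a1. In 250-base windows, CCAAT was found in 13 of 38 collagen windows (35 genes) and in 33.8% of all 32851 windows, and TATAAA in 5 of 38 and in 12.4%. GGGCGG was found in 22 of 38 collagen windows and in 32.7% of all windows. These are matches of letters only.

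All 3 tested chains of type VI collagen fell in males. Col6a3 (chr1:90765923-90843971) was at 35.1 to 39.7 CPM (median 37.5) in male saline and at 10.9 to 27.3 CPM (median 13.4) in male cisplatin libraries, so the groups did not overlap. Its log2 fold change was -1.16 ± 0.31 (adjusted p = 0.014). Col6a1 fell by 0.84 ± 0.27 on the log2 scale (adjusted p = 0.029) and Col6a2 by 0.77 ± 0.22 (adjusted p = 0.017). These chains assemble together before secretion. Col6a1 did not pass without male saline replicate 4 or 6 or male cisplatin replicate 1, 2, 3 or 5 (adjusted p up to 0.070). In females Col6a3 was at 28.3 to 94.7 CPM with saline and at 36.9, 25.1, 51.0, 17.2 and 12.9 CPM with cisplatin, and the log2 fold change of -0.93 ± 0.32 did not pass (adjusted p = 0.20). Values for Col6a1 and Col6a2 in females were -0.22 and -0.34. The other type VI chains, Col6a4, Col6a5 and Col6a6, were at most 2.19 CPM in any library and were not tested.

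Col12a1 (chr9:79598991-79718831) encodes a collagen that binds to the surface of type I fibrils. It was at 25.9 to 42.5 CPM (median 33.4) in male saline and at 3.54 to 21.3 CPM (median 8.58) in male cisplatin libraries. The groups did not overlap, and the level was 3.26-fold lower (log2 fold change -1.71 ± 0.32, adjusted p = 0.0014). In females the change was -0.59 ± 0.32 (adjusted p = 0.39), from 11.9 to 32.1 CPM with saline to 18.7, 11.7, 21.6, 8.74 and 11.1 CPM with cisplatin. Of the other fibril-associated collagens, Col14a1, Col16a1, Col9a3 and Col20a1 did not pass, with values from -0.76 to 0.22 in males. Col14a1 and Col16a1 were called lower without male cisplatin replicate 4. Reads of Col20a1 cannot be told apart from those of an overlapping gene model, BX649560.1, without knowledge of how shared reads were counted.

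**Figure D3:**
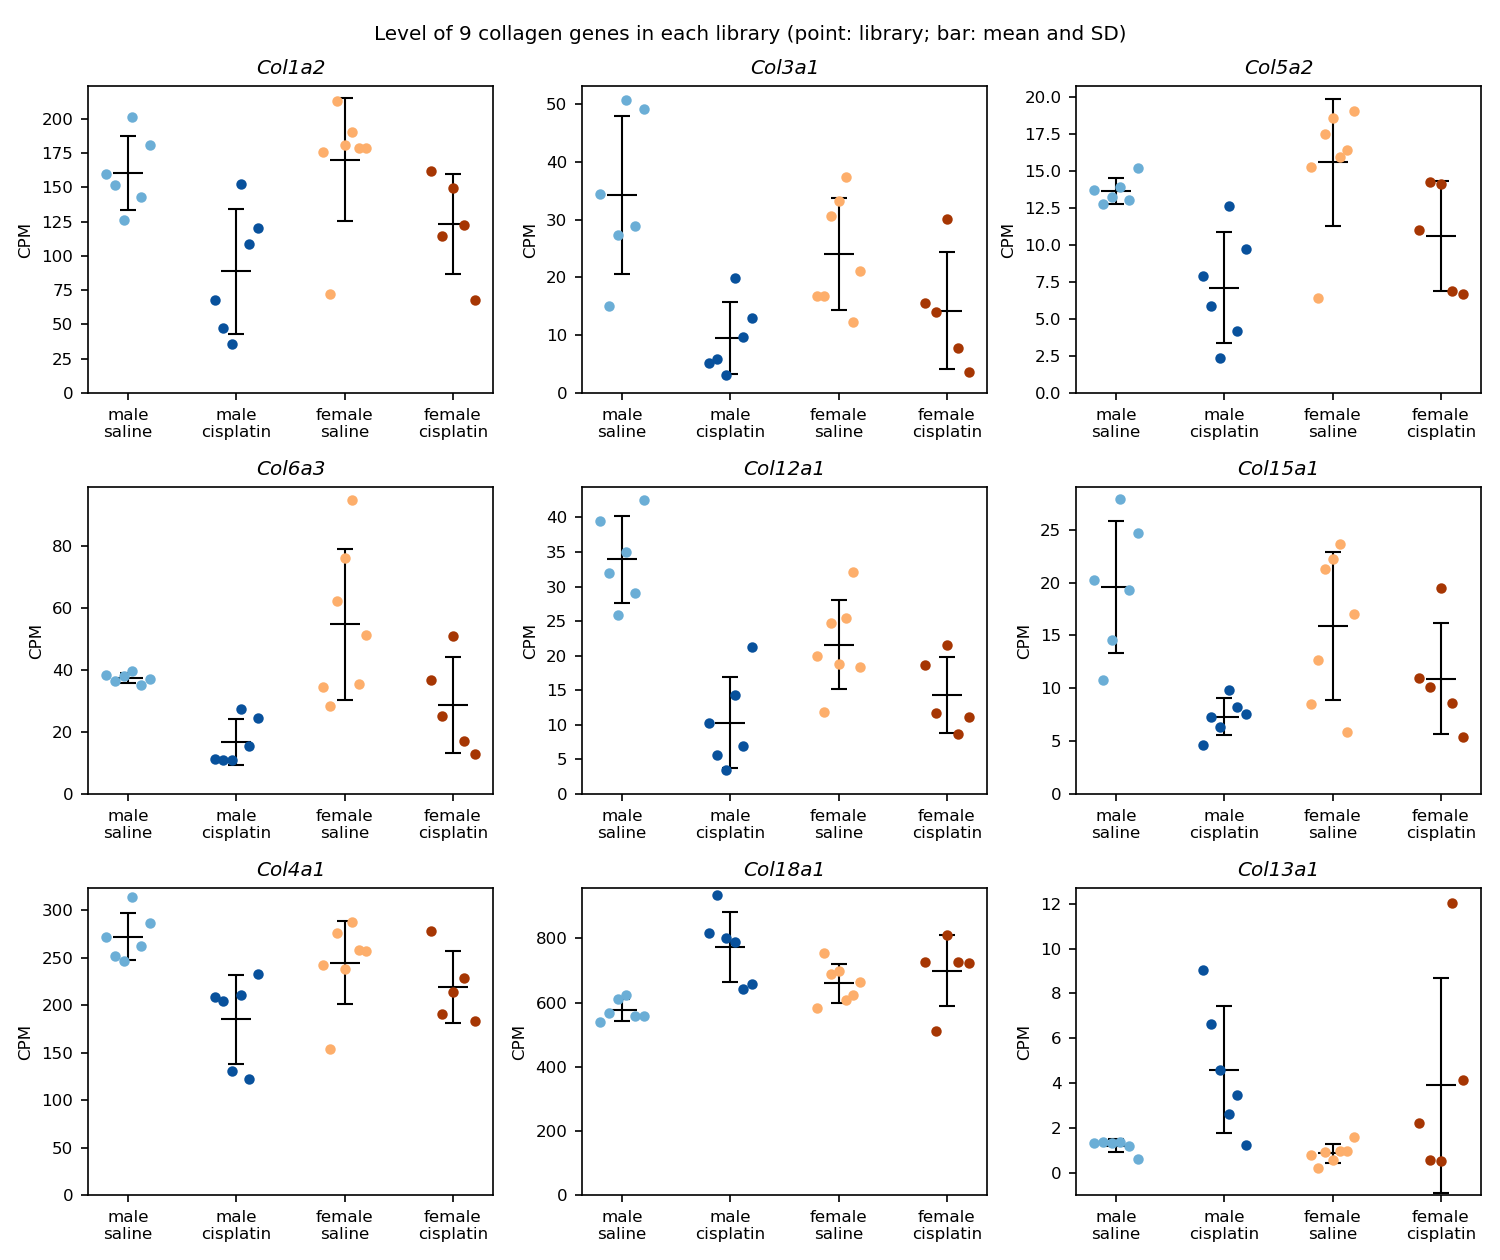
CPM of 9 collagen genes in each of the 24 libraries, with mean and SD per group. Male cisplatin libraries lie below every male saline library for Col5a2, Col6a3, Col12a1, Col15a1 and Col4a1 and above every one for Col18a1, while the female groups overlap in all 9 panels.

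Among the basement membrane collagens, Col15a1 and Col4a1 fell in males and Col18a1 rose. Col15a1, whose product bridges basement membranes and fibrils, was at 10.8 to 27.9 CPM (median 19.8) in male saline and 4.62 to 9.86 CPM (median 7.44) in male cisplatin libraries, without overlap. The log2 fold change was -1.41 ± 0.32 (adjusted p = 0.0049). Col4a1 went from 246.9 to 313.8 CPM (median 267.1) to 122.1 to 232.7 CPM (median 206.9). This too was without overlap, at a log2 fold change of -0.56 ± 0.15 (adjusted p = 0.015). The other 5 type IV chains had values of -0.34 to -0.51, and their adjusted p lay between 0.076 and 0.20. Without male cisplatin replicate 6, Col4a3, Col4a4, Col4a5 and Col4a6 were called lower, where 29.3% of all genes were called. Without male cisplatin replicate 4, Col4a5 and Col4a6 were called lower, where 23.1% were called. Col4a3, Col4a4, Col4a5 and Col4a6 varied widely between cisplatin libraries. Col4a3, for example, was at 444.2 to 600.2 CPM in male saline libraries, whereas the male cisplatin libraries ran from 180.5 CPM in replicate 5 to 706.5 CPM in replicate 6. In females the same 4 chains were lowest in cisplatin replicates 4 and 5: Col4a3 was at 207.9 and 284.9 CPM there, and at 699.4, 470.9 and 748.6 CPM in replicates 1 to 3.

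Col18a1 (chr10:77052178-77166548) was the only basement membrane member to rise. Every male cisplatin library (643.1 to 935.9 CPM, median 795.3) was above every male saline library (539.4 to 623.2 CPM, median 561.6). The log2 fold change was 0.43 ± 0.11 (adjusted p = 0.0087), a 1.34-fold higher level. In females, the saline libraries were at 582.2 to 754.8 CPM and the cisplatin libraries at 725.4, 512.5, 811.5, 725.9 and 722.6 CPM, which overlap (log2 fold change 0.085 ± 0.11, adjusted p = 0.74).

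The other member that rose in males was Col13a1 (chr10:61838236-61979108), which encodes a collagen that spans the plasma membrane at sites of cell adhesion. It was at 0.629 to 1.41 CPM (median 1.34) with saline and at 1.276 to 9.05 CPM (median 4.02) with cisplatin, and 5 of 6 cisplatin libraries were above the saline range. Its log2 fold change was 1.90 ± 0.57 (adjusted p = 0.023, and 0.056 without male cisplatin replicate 1). Female cisplatin libraries were at 2.24, 0.577, 0.527, 12.0 and 4.14 CPM against 0.238 to 1.59 CPM with saline. The female log2 fold change of 2.14 ± 0.57 did not pass (adjusted p = 0.12), and 3 of 5 libraries lay above the saline range. It passed without female cisplatin replicate 2 or 3, and was 1.09 (adjusted p = 0.71) without replicate 4. Of the other membrane-spanning collagens, Col17a1 had 0.88 ± 0.72 and Col23a1 -0.32 ± 0.26 in males, and neither passed. In females Col23a1 had -1.07 ± 0.28 (adjusted p = 0.10), with 4 of 5 cisplatin libraries below the saline range.

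The short-chain and remaining tested collagens, Col7a1, Col8a1, Col8a2 and Col26a1, had values between -1.04 and -0.089 in males and none passed. Col7a1 was called lower with thick limb markers as a covariate. Col8a1 was called lower with DESeq2 in place of edgeR and without male cisplatin replicate 6. The 11 members with too few counts to test were Col6a4, Col6a5, Col6a6, Col9a1, Col9a2, Col10a1, Col19a1, Col22a1, Col24a1, Col25a1 and Col28a1. Apart from Col6a4, none of these exceeded 0.480 CPM in any library.

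Summed over all members, collagen genes held 0.312% ± 0.015 (SD, n = 6) of the counts in male saline libraries and 0.249% ± 0.067 (n = 6) after cisplatin. In females the share was 0.342% ± 0.015 (n = 7) with saline and 0.290% ± 0.068 (n = 5) after cisplatin. The sums are given as descriptions without a test. Fibrillar collagens summed to 301.2 ± 44.4 CPM in male saline and 180.3 ± 76.5 CPM in male cisplatin libraries, which is 59.9% of the saline level. In females they summed to 304.9 ± 69.8 and 238.1 ± 56.2 CPM, or 78.1%. Col1a2 alone had means of 160.5 and 88.7 CPM in males and 169.9 and 123.3 CPM in females. The fibrillar sums therefore rest largely on Col1a2, whose counts carry the limit given above. Type IV sums were 2025 ± 106 and 1471 ± 496 CPM in males, or 72.7%, and 2189 ± 140 and 1799 ± 589 CPM in females, or 82.2%. The other collagens were at 59.0% of saline in males, with all 6 cisplatin libraries below the saline range, and at 74.3% in females, with 1 of 5 below it. The basement membrane sum in males was at 86.0% and takes in both the type IV chains, with a lower sum, and Col18a1, with a higher level. Its SD was 122 CPM in male saline and 489 CPM in male cisplatin libraries.

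**Figure D4:**
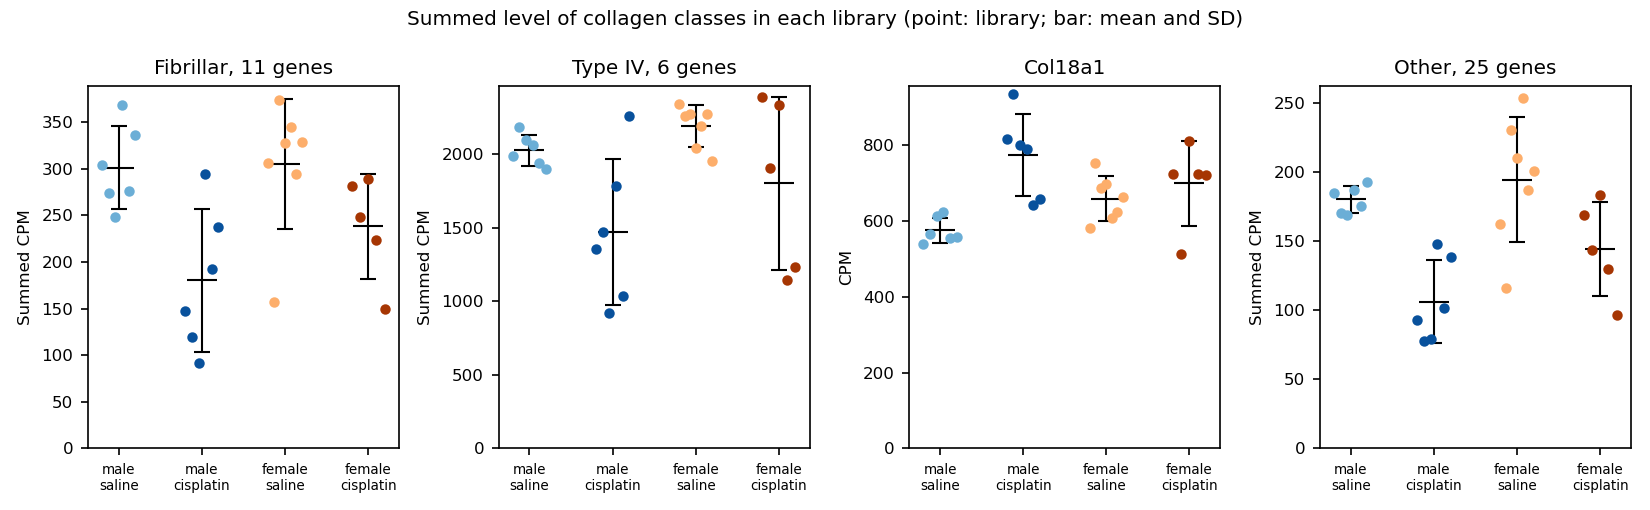
Summed CPM of the fibrillar, type IV and other collagens, and CPM of Col18a1, in each library, with mean and SD per group. A large part of the fibrillar sum is Col1a2. In males the fibrillar mean goes from 301.2 to 180.3 and that of the other collagens from 180.3 to 106.3, while Col18a1 goes up, and cisplatin libraries of both sexes spread widely for type IV.

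The difference between the sexes in the response to cisplatin was tested as an interaction. No member passed, and 0% of all genes did. At an unadjusted p under 0.05 there were 3 members: Col12a1 (1.12 ± 0.44, female minus male response), Col18a1 (-0.34 ± 0.15) and Col1a1 (1.06 ± 0.49), each with an adjusted p of 0.94. The calls made in males alone therefore do not show that the sexes differed. Between females and males under saline 0 members passed (2 at an unadjusted p under 0.05) where 0.189% of all genes did (0.0611% higher and 0.128% lower in females). Under cisplatin it was 0 members (4 unadjusted) and 0.156% of genes (0.106% higher and 0.05% lower). DESeq2 also called none in these 3 comparisons, where it called 0% of all genes for the interaction, 0.322% under saline and 0.705% under cisplatin. For the female response to cisplatin, edgeR called 0 members (5 at an unadjusted p under 0.05), and DESeq2 called Col13a1 higher and Col11a1 and Col23a1 lower. DESeq2 called 1.34% of all genes there.

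Genes that make, crosslink, bind and break down collagen were read beside the members in males. Over all tested genes in this comparison, 13.2% were called higher and 7.54% lower. Of 21 tested genes of collagen synthesis and processing, 7 fell and none rose. They include Serpinh1, the collagen chaperone (145.1 to 86.3 CPM in the mean, log2 fold change -0.75, adjusted p = 0.0056), the prolyl hydroxylase subunit P4ha1 (-0.85, adjusted p = 0.0076), the propeptidase Adamts2 (-0.93, adjusted p = 0.0077) and Pcolce2, an enhancer of propeptide removal (-1.92, adjusted p = 0.0072). Of 7 crosslinking genes, Loxl1 (-0.91) and Loxl3 (-0.64) fell. Among 16 matrix proteins that bind fibrils 7 fell, with Ogn (-1.47), Thbs1 (-1.03), Bgn (-0.78) and Vcan (-2.06) among them, and none rose. Of 14 genes of collagen breakdown and its inhibitors, 4 fell, including the collagenase Mmp13 (-1.86) and Mmp3 (-2.44). The protease Fap (1.80) and the protease inhibitor Timp1 (2.26) rose.

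The next counts also stand beside 13.2% of all genes called higher and 7.54% lower in males. Among 9 collagen receptor genes Itga2 rose (1.24), while Itga1 (-0.42) and Ddr2 (-1.05) fell. The basement membrane partners of type IV collagen went both ways, with 4 of 18 higher and 4 lower. Smoc2 (3.42), Lamb2 (0.60) and Agrn (0.63) were among those that rose, and Lama2 (-1.43), Lama4 (-1.17), Nid1 (-1.15) and Lamc1 (-0.52) fell. Among 16 regulators of collagen transcription, Ccn2, a matricellular protein induced by transforming growth factor beta, rose in males (1.72, adjusted p = 0.0090). It also rose in females (2.11, adjusted p = 0.027), where it was the only gene of these lists to pass. Tgfbr2 (0.37) rose and Smad3 (-0.45) fell in males.

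Some markers of the cells that make collagen also changed in males, where 13.2% of all genes were called higher and 7.54% lower. Of 12 fibroblast markers 5 fell and none rose. Positive values that did not pass were those of Pi16 (1.03, adjusted p = 0.05005), Lum (0.48, 0.66) and Dcn (0.22, 0.61). Pdgfra, a receptor that marks fibroblasts, went from 272.2 to 323.5 CPM down to 35.1 to 219.9 CPM (-1.38, adjusted p = 0.0060). The summed fibroblast markers ranged from 926.5 to 1135 CPM in male saline libraries and from 362.5 to 943.3 CPM after cisplatin. In females they ranged from 683.2 to 1213 CPM with saline and from 532.8 to 1059 CPM after cisplatin. No fibroblast marker was at 0 in every library of a group, but Lum was at most 5.20 CPM in any library. Male cisplatin replicate 3 had both the lowest fibroblast sum (362.5 CPM) and the lowest fibrillar sum (91.2 CPM) of all libraries. Female saline replicate 2 had the lowest of both among saline libraries (683.2 and 157.6 CPM). Of 10 endothelial markers 5 fell, and their sum was 2559 to 3009 CPM in male saline and 989.7 to 3068 CPM in male cisplatin libraries. Pericyte and smooth muscle markers had 3 of 8 lower, with sums of 115.3 to 164.6 and 110.6 to 144.9 CPM. Macrophage markers had 2 of 10 higher and 2 lower, with sums of 96.8 to 195.2 and 131.8 to 246.2 CPM. Urothelial markers had 2 of 7 higher and none lower, with sums of 494.8 to 617.6 and 540.7 to 1713 CPM (1713 in replicate 5). Principal cell markers had 1 of 7 higher and 1 lower, with sums of 7384 to 8881 and 4640 to 10030 CPM. Podocyte and mesangium markers had 2 of 5 lower and none higher. The part of these cell types in the collagen results was not tested.

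Markers of the thick ascending limb, a tubule segment of the outer kidney that can be carried over in dissection, differed widely between libraries. Their sum was 2585 to 13910 CPM in male saline, 1631 to 8150 in male cisplatin, 936.0 to 12050 in female saline and 3754 to 9375 CPM in female cisplatin libraries. Over the 13 saline libraries, each of the 33 tested members was set against the mean log2(CPM + 1) of the 6 markers, and 8 relations passed after adjustment over the 33 (permutation test, 100000 resamples). The share over all 18005 tested genes was not computed, so the 8 cannot be read as a trait of collagens. The level of Col3a1 went up with these markers (Pearson r = 0.87, permutation p = 1e-05, the smallest these permutations can give, adjusted p = 0.00033). Spearman's rho was 0.84 (permutation p = 0.00068), r was 0.79 without the 2 libraries farthest out, 0.94 in the 6 male libraries and 0.84 in the 7 female ones. Col15a1 (r = 0.92, rho = 0.86), Col1a1 (r = 0.85, rho = 0.76) and Col26a1 (r = 0.80, rho = 0.71) went the same way, with adjusted permutation p of 0.00083, 0.0013 and 0.0050 for r. Col4a5 (r = -0.90, rho = -0.79), Col7a1 (r = -0.79, rho = -0.79), Col11a2 (r = -0.77, rho = -0.76) and Col4a6 (r = -0.75, rho = -0.82) went the opposite way, with adjusted permutation p of 0.0016, 0.0050, 0.0059 and 0.0050. Without the 2 libraries farthest out, r was 0.83 for Col15a1, 0.73 for Col1a1, 0.51 for Col26a1, -0.77 for Col4a5, -0.66 for Col7a1, -0.61 for Col11a2 and -0.73 for Col4a6. Within the sexes, exact permutation p for r was above 0.05 in males for Col26a1 (r = 0.62), Col7a1 (-0.71) and Col11a2 (-0.55), and in females for Col4a6 (-0.69). For Col1a2 the relation did not pass (r = -0.037, permutation p = 0.91).

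**Figure D5:**
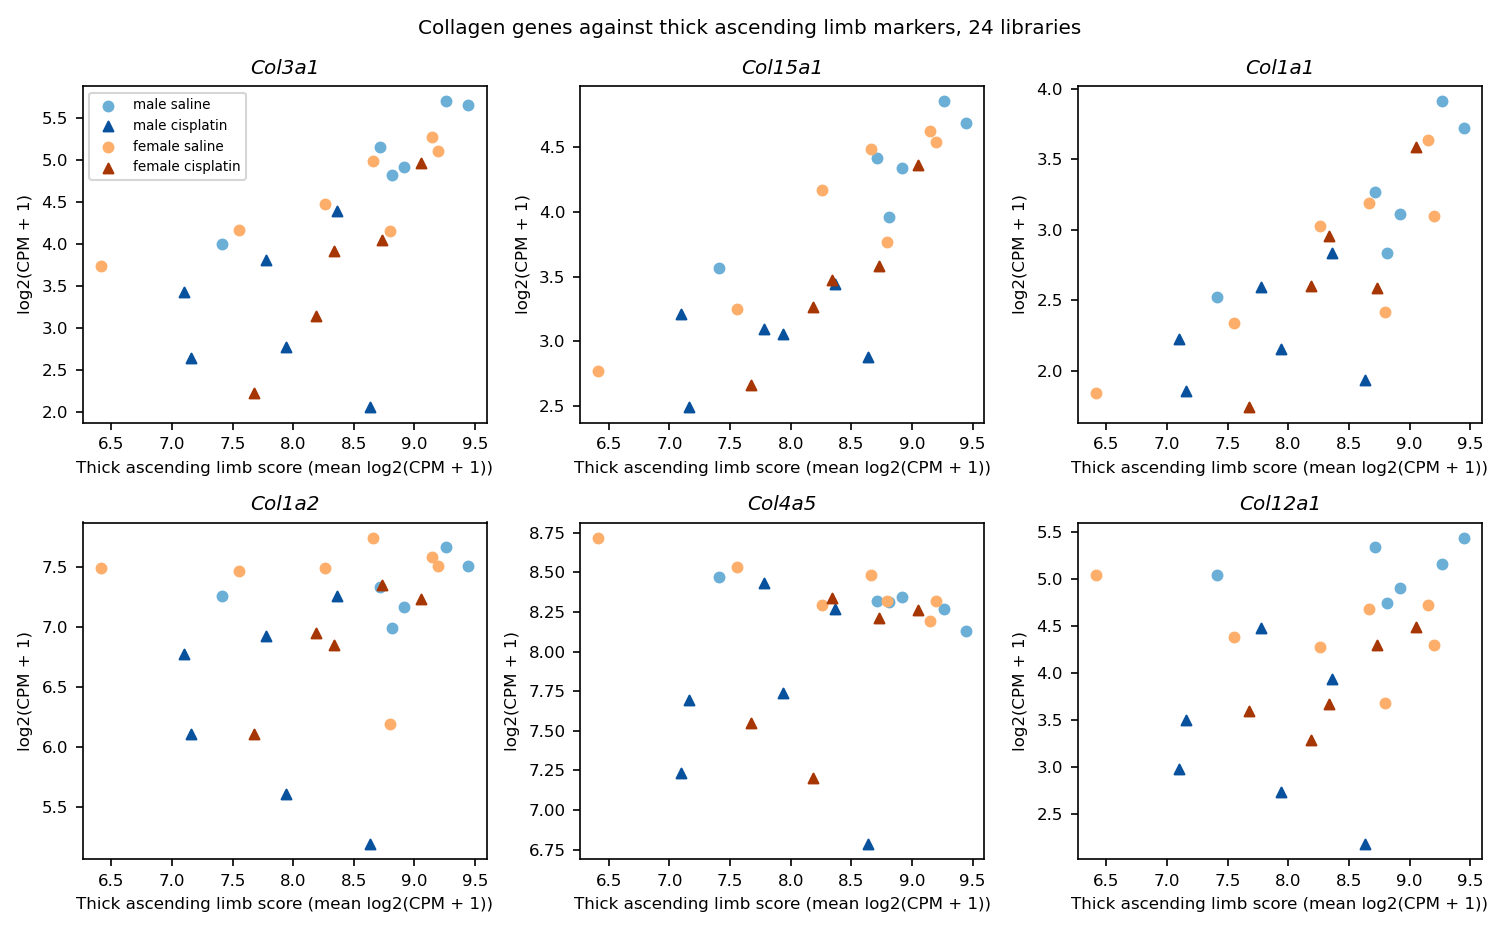
Log2(CPM + 1) of 6 collagen genes against the mean log2(CPM + 1) of 6 thick ascending limb markers in the 24 libraries, circles for saline and triangles for cisplatin. Over the 13 saline libraries Col3a1, Col15a1 and Col1a1 go up with the score and Col4a5 goes down.

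With the mean of proximal tubule and thick limb markers as a covariate, 4 members remained lower in males: Col3a1 (-1.21, adjusted p = 0.029), Col4a1 (-0.59, 0.036), Col12a1 (-1.64, 0.0092) and Col15a1 (-0.90, 0.032). Col18a1 remained higher (0.41, adjusted p = 0.032). Another 8 members no longer passed, with adjusted p from 0.060 to 0.17, and all 8 kept their direction. Their log2 fold changes were then -0.86 for Col11a1, -0.77 for Col5a2, -0.72 for Col6a3, -0.65 for Col1a2, -0.61 for Col1a1, -0.60 for Col6a1, -0.53 for Col6a2 and 1.16 for Col13a1. With the thick limb markers alone, Col3a1 did not pass either (-1.10, adjusted p = 0.054). The markers were themselves lower after cisplatin in males. Their thick limb sum had a mean of 9329 CPM with saline and 4663 CPM with cisplatin, and 1 of 6 was called lower. Carry-over in dissection and a response of these markers to the drug cannot be told apart, so the covariate may remove part of either. Col4a1, Col12a1, Col15a1 and Col18a1 passed under every one of 20 alternatives in males.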

How the data were processed

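The members and lists were chosen with earlier results of these data known. The values used were counts per gene, whole numbers the authors deposited as 1 table of 24 libraries, and all columns were mapped to a library (0 unmapped). Per the submitters' processing notes, the tools included Trim Galore 0.6.7, Subread 2.0.1 with featureCounts and DESeq2 1.28.1, and the build was mm10. Aligner, annotation release and strandedness: not given in the sources used here. A symbol was found for 52083 of 55416 identifiers. Coordinates and merged exon lengths came from GENCODE M21 (GRCm38), and upstream sequences from RefSeq (GRCm38.p6).

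Libraries held 18084242 to 27279102 counts. Genes were kept with edgeR's filterByExpr (minimum count 10), and 18005 were tested. Scaling was by TMM, and a quasi-likelihood model took all 24 libraries and 1 mean for each group in R 4.3.3 with edgeR 4.0.16. The common biological coefficient of variation was 0.251. An adjusted p (Benjamini-Hochberg) under 0.05 was called, and fold changes are log2 with their SE. The fit was tested on simulated data. DESeq2 1.42.0 was an alternative, along with RLE size factors, no filter, fits of the compared groups only, marker covariates, a replicate block and leaving out libraries. Correlations used scipy 1.17.1. Within groups, the lowest chi-square per gene over 61 pairs of libraries was 7.88, so no library repeated another. Replicate numbers gave no clear pairing of libraries (median correlations of same-numbered libraries from -0.084 to 0.16, single pairs from -0.35 to 0.34). Differently numbered libraries were not compared, so this check cannot exclude a pairing. Named with values are members called in any comparison, the 3 most abundant of each class and further chains of their types, and up to 4 called genes with the smallest adjusted p per list. Some genes that this rule would name are not reported here.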

Additional observations from a re-analysis of the deposited data

Results flagged for a closer look

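A library was set apart where its gap to the nearest library of the group was a large share of the group's range (Dixon's 95% limit). This was done for 144 groups of values, and chance alone sets apart about 1 in 20; 8 were found. Of these 8, 5 concern female saline replicate 2, which was lowest for Col1a2 (72.3 CPM, next 176.0), Col4a1 (154.2 CPM, next 238.1), Col5a1 (13.6 CPM, next 31.9), Col5a2 (6.44 CPM, next 15.3) and the fibrillar sum (157.6 CPM, next 294.8). Its fibroblast markers were also the lowest of the saline libraries, and their part in this was not tested. Male saline replicate 4 was highest for Col11a1 (1.67 CPM, next 0.964), male saline replicate 6 lowest for Col13a1 (0.629 CPM, next 1.23), and male cisplatin replicate 4 highest for Col16a1 (33.1 CPM, next 21.2).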

How the results depend on the processing

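In males, the counts of 2 members higher and 11 lower were 3 and 12 with DESeq2, 2 and 9 with only the male libraries fitted, and 2 and 11 with RLE factors, without the filter and with the replicate block. The share of all genes called, 20.7% in the main fit, was 24.2% with DESeq2 and 14.5% with only the male libraries. It was 20.7% with RLE factors, 10.1% without the filter and 18.5% with the block. Replicate numbers showed no clear pairing in the data, and the block left 0 female calls. With the covariate of proximal tubule and thick limb markers, 1 was higher and 4 lower, where 11.6% of all genes were called. With thick limb markers alone it was 2 (Col18a1 and Col5a3) and 4 (Col4a1, Col7a1, Col12a1 and Col15a1), where 13.9% were called. Col5a3 and Col7a1 were not called in the main fit, and Col13a1 was no longer called. Male cisplatin 5 and female saline 1 and 6 were left out for their tubule or urothelial markers (chosen after seeing the data, as was the second covariate). Female saline 1 was no clear outlier, since its thick limb sum of 2731 CPM was above that of male saline 2 (2585 CPM), which was kept. Without these libraries 3 and 8 passed, where 16.5% of all genes were called. Leaving out 1 library gave 7 to 16 lower (7 without male saline 4 or 6 or male cisplatin 3, 16 without male cisplatin 4 or 6) and 1 to 3 higher (1 without male cisplatin 1, 3 without male cisplatin 5 or 6). Over these male fits the share of all genes called ran from 14.2% without male cisplatin 3 to 29.3% without male cisplatin 6. In females the counts were 0 to 1 higher and 0 to 2 lower when 1 library was left out, and 1 and 2 with DESeq2. The share of all genes called was 0.115% to 0.76% in the female leave-outs and 1.34% with DESeq2. The female log2 fold change of Col1a1 turned positive with the covariate (0.14), without female saline 5 (0.095) and without female cisplatin 5 (0.11). With types XV and XVIII counted among the other collagens, the log2 ratio of the summed male basement membrane class was -0.46. That of the other class then became 0.19 in males and -0.025 in females, against -0.76 and -0.43. Levels under about 1 CPM, as for Col11a1, rest on few counts.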
